A study of Macaca mulatta with 5 samples.

Results

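The genes described here encode 9 peptide receptors that were measured in single nuclei of macaque claustrum: the orexin receptors HCRTR1 and HCRTR2, the melanin-concentrating hormone receptor MCHR2, the vasoactive intestinal peptide receptor VIPR1, the RFamide receptor NPFFR1, the relaxin receptor RXFP1, the neuropeptide S receptor NPSR1, the cholecystokinin receptor CCKBR and the galanin receptor GALR1. They were found by their gene symbols, each on 1 row of the 21761 genes in each of the 5 count tables. The tissue was frozen, untreated claustrum of 2 male rhesus macaques, and the labels give no strain or genotype. A 17-month-old animal gave 2 libraries and an 18-month-old animal gave 3 libraries, all made with the 10x Genomics 3' V3 kit. Each age is therefore 1 animal whose libraries are repeats, so every p-value below rests on how libraries vary and says nothing of how animals vary. Age and individual cannot be told apart.

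The claustrum is a thin sheet of neurons between the insular cortex and the striatum. Peptide receptors of this kind are G protein-coupled: orexin receptors raise calcium through Gq and signal arousal, the receptors of vasoactive intestinal peptide and relaxin raise cAMP through Gs, and galanin receptors act mostly through Gi. Most of the ligands reach forebrain targets from small groups of hypothalamic or brainstem neurons, whereas vasoactive intestinal peptide and cholecystokinin are also made by local cortical interneurons.

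The 40005 nucleus barcodes held between 47512670 and 70896967 counts of unique molecular identifiers (UMIs) per library, and 37091 nuclei were kept after filtering. Library pairs shared 11 to 39 barcodes. Libraries 2 and 3 of the 18-month animal stood apart in their make-up: striatal projection neurons were 8.86% and 7.88% of their nuclei, against 2.39% and 1.66% in the 17-month libraries and 4.003% in library 1 of the 18-month animal. Nuclei were clustered on other genes of the same nuclei, with all 9 receptors left out, and clusters were named by marker genes. Of 8460 excitatory nuclei, 5074 were claustrum-like (excitatory clusters 1, 2, 3 and 7) and 3386 were other excitatory nuclei. The claustrum markers NR4A2 (251 against 29.2 CPM, a counts-per-million scale), GNB4 (200.2 against 21.5 CPM) and SMYD1 (66.6 against 1.81 CPM) were higher in the first, which describes the naming and is no test of it. Cluster 3 had a marker of another class and no claustrum marker among its 10 leading genes, so its name rests on weaker ground and comparisons of the claustrum-like group are also given without it. The other excitatory nuclei were layer 6 corticothalamic-like (cluster 6), layer 6b-like (8), layer 4/5-like (9) and layer 2/3-like (13) nuclei with the unnamed clusters 4, 5, 11 and 15. There were 2704 inhibitory nuclei, 1245 of them like interneurons of the caudal ganglionic eminence (CGE-like) and 1348 like those of the medial ganglionic eminence (MGE-like), with 1855 striatal projection neurons and 353 intercalated-like nuclei. The striatal nuclei had 9971 CPM of PDE10A and 1040 CPM of RGS9, whereas the striatal marker DRD1 (6.89 CPM) was low. Levels below are CPM of a group's own UMIs in a library, given as mean ± SD over the 5 libraries unless stated. These are 3' counts, and levels are compared between groups of nuclei within a gene, not between genes. Oligodendrocyte and microglial nuclei were shallow (median 2417 and 2036 UMIs, against 16517 in claustrum-like nuclei). Stray UMIs weigh more in the CPM of shallow nuclei. A neuron class at or below the CPM of glia is therefore not shown to lack the gene.

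Each receptor had its own pattern over the neuron types. RXFP1 was highest in deep-layer cortical-like and 1 claustrum-like cluster. HCRTR2 was highest in small CGE-like clusters and, with large differences between libraries, in claustrum-like cluster 1. VIPR1 and CCKBR were highest in excitatory neurons of several kinds, and so was MCHR2 among clusters of at least 50 nuclei. The 40 nuclei of striatal cluster 8 had more MCHR2 than any of these, at 112 CPM pooled. NPFFR1 was mostly in inhibitory neurons, which held 662 of its 871 counts over all kept nuclei. NPSR1 was highest in CGE-like inhibitory cluster 12, where 8 of 54 nuclei held 93 of 114 counts. Among excitatory clusters it was highest in cluster 5, outside the claustrum-like group. HCRTR1 and GALR1 were sparse in all neurons, with 260 and 159 counts over all kept nuclei. The map of pooled levels shows these patterns for every group of nuclei.

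**Figure D1:**
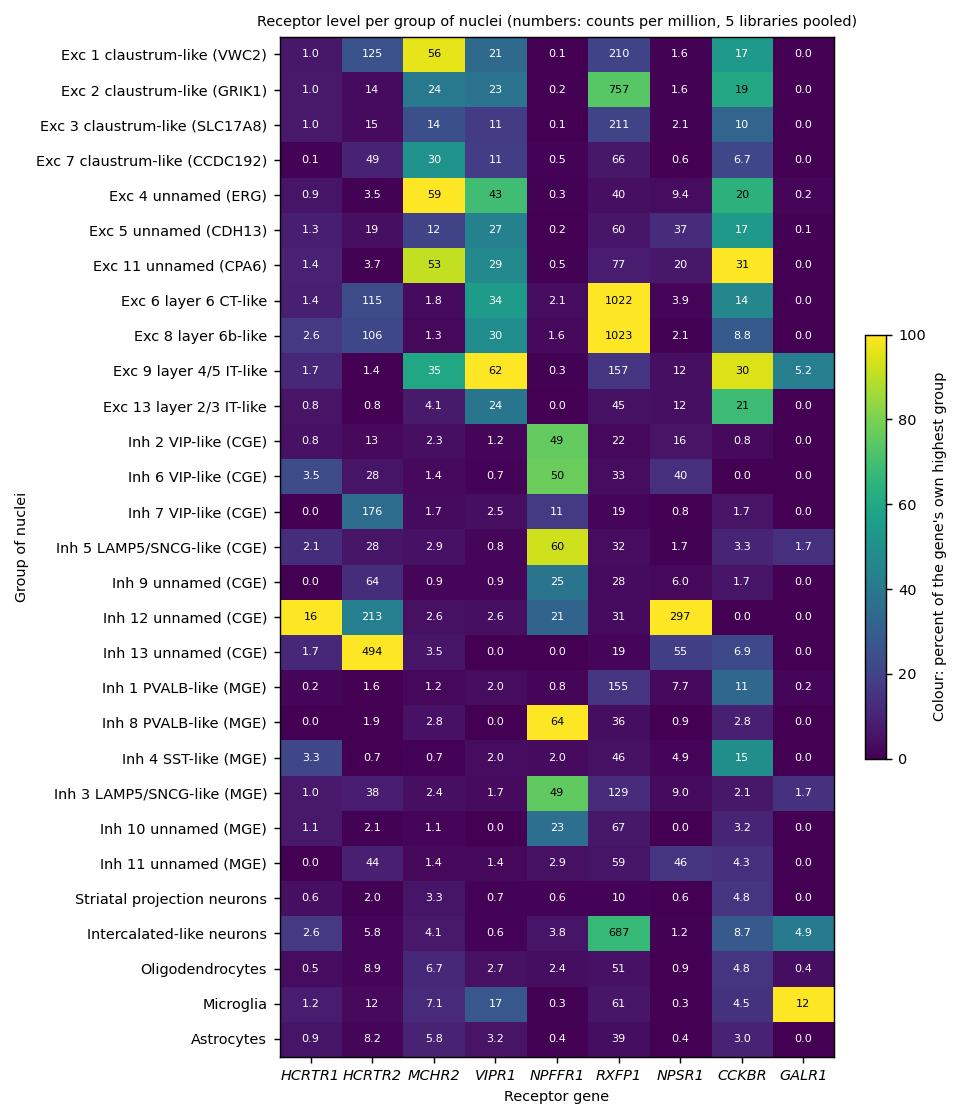
Level of the 9 receptors (columns) in groups of nuclei (rows), in CPM with the 5 libraries pooled (numbers in the cells); colour gives the percent of the gene's own highest group. Among groups of at least 50 nuclei, HCRTR2 peaks at 494 in inhibitory cluster 13 and NPSR1 at 297 in inhibitory cluster 12. Among the same groups RXFP1 peaks at 1023 in excitatory cluster 8 and GALR1 at 12.1 in microglia. The 36 nuclei of inhibitory cluster 15 had 41.5 CPM of GALR1.

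Between excitatory and inhibitory neurons, all 9 receptors had enough counts to be tested, and 6 passed the limits of the test (adjusted p under 0.05 in edgeR's quasi-likelihood test and a log2 difference of at least 1), as did 18.8% of all genes tested. Of all genes 9.42% were higher and 9.42% lower in excitatory neurons. MCHR2, VIPR1, RXFP1 and CCKBR were higher in excitatory neurons in each library, and NPFFR1 and GALR1 were lower. Between claustrum-like and other excitatory neurons 1 of 7 tested receptors passed, NPSR1, which was lower, against 10.4% of all genes (4.54% higher and 5.86% lower). NPFFR1 (16 and 35 counts) and GALR1 (2 and 20 counts) were too sparse for that comparison. Between CGE-like and MGE-like neurons 4 of 5 tested receptors passed, against 8.2% of all genes (4.54% higher and 3.66% lower), with HCRTR2 and NPFFR1 higher and RXFP1 and CCKBR lower in the CGE-like group. Between striatal projection neurons and inhibitory neurons 5 of 7 passed, against 26.6% of all genes (11.3% higher and 15.3% lower), with HCRTR2, NPFFR1, RXFP1 and NPSR1 lower and MCHR2 higher in the striatal group. Among the 4 claustrum-like clusters 5 of 6 passed, against 10.3% of all genes: HCRTR2, MCHR2, VIPR1, RXFP1 and CCKBR. The p-values for these clusters, here and below, come from an F-test of any difference among them. The range given beside such a p-value was not itself tested. Comparisons that use the same inhibitory or excitatory nuclei share those nuclei, and receptors that passed the count filter through 1 high group had to differ.

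**Figure D2:**
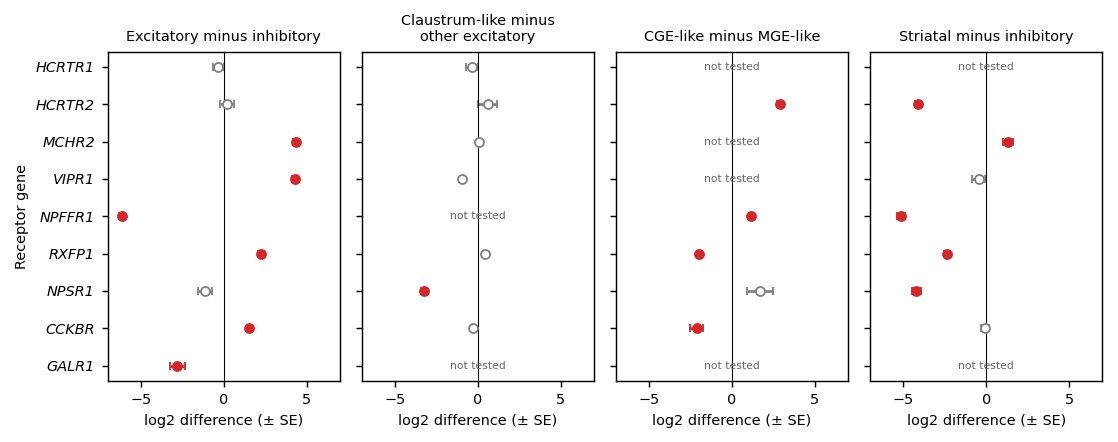
Log2 difference of each receptor in 4 comparisons of neuron types (points, with the standard error as bars; filled points passed an adjusted p of 0.05 and a log2 difference of 1). NPFFR1 lies at -6.14 between excitatory and inhibitory neurons, and NPSR1 is the only filled point between claustrum-like and other excitatory neurons, at -3.26.

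HCRTR1, which prefers orexin A, was sparse in every neuron class. It had 0.946 ± 0.190 CPM in claustrum-like, 1.30 ± 0.910 CPM in other excitatory and 1.45 ± 0.673 CPM in inhibitory neurons, beside 0.560 ± 0.302 CPM in oligodendrocytes and 1.16 ± 0.348 CPM in microglia. The difference between excitatory and inhibitory neurons was -0.32 on the log2 scale (standard error 0.321, adjusted p = 0.415, edgeR). Intercalated-like neurons had 3.33 ± 2.15 CPM from 9 counts. Its highest cluster was CGE-like inhibitory cluster 12, with 15.6 CPM from 6 counts in 54 nuclei, too few to rank against the other clusters.

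HCRTR2, which binds both orexins, was concentrated in a few neuron types. Inhibitory cluster 13, 53 CGE-like nuclei whose leading genes were CADPS2 and HCRTR2 itself, had 459.7 to 489 CPM in the 3 libraries with at least 10 of its nuclei and no less in the other 2, and 48 of the 53 nuclei had a UMI. Next in order stood the VIP-like inhibitory cluster 7 (174 ± 57.3 CPM) and CGE-like cluster 12 (171 ± 65.5 CPM in 3 libraries), which overlapped each other and the excitatory clusters after them and whose highest counted libraries lay below the lowest of cluster 13. In contrast, the PVALB-like clusters 1 and 8 had 1.57 and 1.87 CPM pooled and the SST-like cluster 4 had 0.659 CPM. MGE-like cluster 3, with 111 counts, had 37.9 ± 11.5 CPM. It overlapped with CGE-like cluster 5 (29.6 ± 22.8 CPM) and VIP-like cluster 6 (30.4 ± 17.4 CPM) and exceeded VIP-like cluster 2 (12.6 ± 7.73 CPM). The difference between the CGE-like and MGE-like classes thus did not hold for each cluster. CGE-like neurons had 73.2 and 71.0 CPM at 17 months and 68.7, 100 and 102 CPM at 18 months, and MGE-like neurons had 7.5, 15.4, 15.2, 11.8 and 7.03 CPM. The groups did not overlap, and the log2 difference was 2.88 (standard error 0.194, adjusted p = 5.59e-07, edgeR). Striatal projection neurons had 1.71 ± 0.846 CPM, which is below the 8.84 ± 4.28 CPM of oligodendrocytes.

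Among excitatory neurons, HCRTR2 was high in the layer 6 corticothalamic-like cluster 6 (117 ± 20.7 CPM), the layer 6b-like cluster 8 (101 ± 23.1 CPM) and the claustrum-like cluster 1, which leads with VWC2 and the follicle-stimulating hormone receptor FSHR (112 ± 103 CPM). Clusters 6 and 8 held similar levels in all libraries, whereas cluster 1 spread over a wide range. Cluster 1 had 47.0 and 22.1 CPM in libraries 1 and 2 of the 17-month animal and 66.0, 151 and 274 CPM in libraries 1, 2 and 3 of the 18-month animal. The spread was thus large between libraries of 1 animal, and all 3 of the older animal lay above both of the younger one. Libraries 2 and 3 of the 18-month animal were also highest in claustrum-like cluster 2 (27.4 and 35.8 CPM, against 4.04 to 4.87 CPM in the others) and in cluster 7 (98.4 and 70.9 CPM, against 3.17 to 21.3 CPM). Cluster 3 did not share the order, with 24.7, 11.9, 4.63, 16.6 and 24.7 CPM, nor did clusters 6 (89.4 and 131 CPM against 100.3 to 135 CPM) and 8.

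The shares of cluster 1 nuclei with a UMI followed the level, and so restate it. A UMI was found in 25.9% and 18.5% of its nuclei in the 17-month libraries and in 38.4%, 58.0% and 85.3% in the 18-month libraries. After thinning each nucleus to 2000 UMIs, with no nucleus left out, the shares were 7.65%, 3.61%, 13.9%, 21.8% and 35.8%. Nuclei with at least 5 HCRTR2 UMIs were 3.70%, 1.61%, 11.03%, 22.8% and 55.05% of the cluster, and the highest nucleus had 41. The median nucleus of the cluster had 13280, 16710, 20320, 18120 and 25810 UMIs in these libraries. In corticothalamic-like cluster 6 the thinned shares ran from 12.3% to 24.1%. Splitting cluster 1 more finely gave 4 finer groups, and library 3 of the 18-month animal was highest in each, at 363, 165, 152 and 434 CPM, with library 2 second. Oligodendrocytes had 14.6 and 11.2 CPM in those 2 libraries and 8.94, 4.30 and 5.15 CPM in the others, so the level outside neurons moved in the same direction over a smaller range. Those 2 libraries were also the ones with the most striatal nuclei, and cluster 1 was 39.2% and 41.3% of their claustrum-like nuclei against 28.8% to 34.8% in the others. The part of these differences in the HCRTR2 level was not tested.

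**Figure D3:**
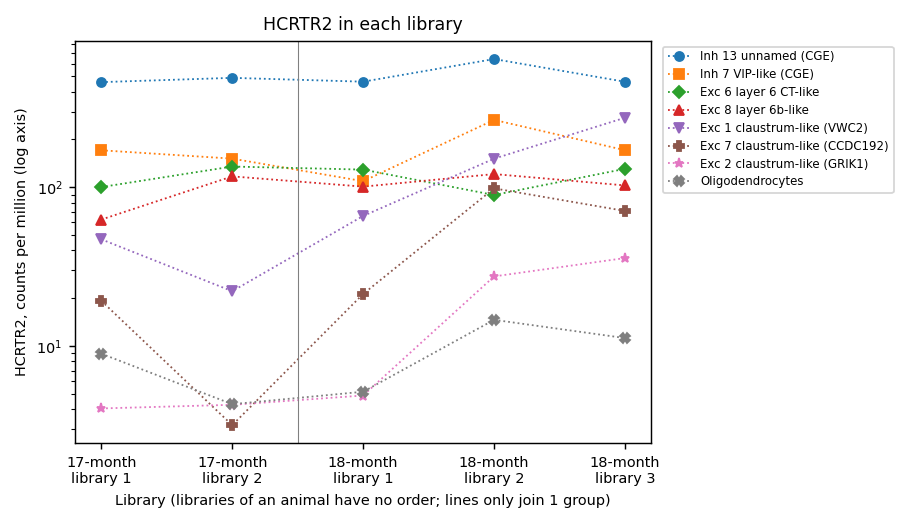
HCRTR2 level (CPM, log axis) in each of the 5 libraries for 8 groups of nuclei; the vertical line separates the animals. Claustrum-like cluster 1 runs from 22.1 to 274 while inhibitory cluster 13 stays at or above 459.7 and corticothalamic-like cluster 6 stays between 89.4 and 135.

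Neither the comparison of claustrum-like with other excitatory neurons nor that of excitatory with inhibitory neurons (log2 difference 0.18, adjusted p = 0.742, edgeR) gave a call for HCRTR2. Claustrum-like neurons had 25.6, 12.2, 29.2, 85.4 and 143 CPM and other excitatory neurons had 18.3, 36.2, 27.9, 33.6 and 39.1 CPM, which overlap. The log2 difference was 0.59 (standard error 0.569, adjusted p = 0.477, edgeR), with 0.34 without library 2 and 0.21 without library 3 of the 18-month animal. Against the 1124 nuclei of the named cortical-like clusters alone it was -0.96 (adjusted p = 0.328), and with finer subclusters, where a small HCRTR2-rich cluster is no longer named claustrum-like, it was -0.14. The 18-month animal was higher than the 17-month animal by 2.24 on the log2 scale in claustrum-like neurons, which was not called (standard error 0.909, adjusted p = 0.223, edgeR). Without library 1 of the 18-month animal it was higher by 2.66 (adjusted p = 0.0454, edgeR). That library was the 18-month one nearest the 17-month values (29.2 against 25.6 and 12.2 CPM), so leaving it out had to widen the difference. Among the claustrum-like clusters, where libraries served as blocks, the range between the highest and lowest cluster was 2.99 on the log2 scale (adjusted p = 6.49e-05, edgeR) and the call held without each library in turn. Without cluster 3 the range was 3.04 (adjusted p = 2.88e-05) and the difference from other excitatory neurons was 0.83 (adjusted p = 0.357).

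MCHR2 encodes a melanin-concentrating hormone receptor that primates carry and rodents lack. It had 41.7, 33.7, 24.2, 32.6 and 41.05 CPM in excitatory neurons and 3.78, 1.71, 1.007, 0.712 and 1.64 CPM in inhibitory neurons. The excitatory values lay above the inhibitory ones in each library (log2 difference 4.37, standard error 0.180, adjusted p = 1.07e-09, edgeR). Oligodendrocytes had 6.87 ± 1.71 CPM, so the inhibitory level did not exceed that outside neurons. Within excitatory neurons the unnamed cluster 4 (leading genes ERG and TOX, 59.6 ± 11.9 CPM) and claustrum-like cluster 1 (56.1 ± 13.1 CPM) were highest and overlapped. Clusters 11 (49.3 ± 27.1 CPM) and 9 (47.2 ± 42.1 CPM in 4 libraries) followed, also overlapping, and claustrum-like clusters 7, 2 and 3 had 30.9 ± 5.80, 24.95 ± 9.25 and 14.7 ± 3.15 CPM. Layer 6 corticothalamic-like cluster 6 (0.629 to 4.82 CPM) and layer 6b-like cluster 8 (0 to 2.86 CPM), the excitatory clusters with the most RXFP1, stood at or below the level of oligodendrocytes.

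The reference group decided how MCHR2 compared between claustrum-like and other excitatory neurons. The means were 35.2 ± 8.68 and 33.0 ± 8.90 CPM (log2 difference 0.09, adjusted p = 0.722, edgeR), and the sign turned without library 3 of the 18-month animal (-0.09) and without unnamed cluster 5 (-0.18). Against the named cortical-like clusters alone, claustrum-like neurons were higher by 2.14 on the log2 scale (adjusted p = 0.0127, edgeR). The clusters within the claustrum-like group differed by up to 1.99 (adjusted p = 5.26e-07, edgeR). Without cluster 3, which sets the low end of that range, they differed by up to 1.30 (adjusted p = 7.81e-04), and the difference from other excitatory neurons was 0.34 (adjusted p = 0.191).

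In the striatal nuclei most MCHR2 belonged to striatal cluster 8. This cluster of 40 nuclei, which also leads with the glutamate receptor GRIK1 and with ROR1, held 54 of 89 striatal MCHR2 counts. A UMI was present in 21 of its 40 nuclei, and its pooled level was 112 CPM against 1.34 CPM (35 counts) in the other 1815 striatal nuclei. Striatal projection neurons were higher than inhibitory neurons by 1.31 on the log2 scale, in 4 of 5 libraries (adjusted p = 0.00299, edgeR), and without that cluster by 0.11 (adjusted p = 0.829).

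VIPR1 encodes a receptor that binds vasoactive intestinal peptide and PACAP. It was another excitatory gene: 25.9 ± 4.72 CPM in excitatory and 1.44 ± 0.627 CPM in inhibitory neurons, higher in each library (log2 difference 4.28, standard error 0.141, adjusted p = 2.54e-11, edgeR). The layer 4/5-like cluster 9 was highest of the clusters with at least 50 nuclei, at 59.8 ± 7.66 CPM in 4 libraries, and did not overlap the next, cluster 4, at 42.7 ± 2.58 CPM. Claustrum-like clusters 2 and 1 had 23.2 ± 4.66 and 22.5 ± 6.23 CPM, and clusters 7 and 3 had 12.7 ± 8.54 and 11.6 ± 5.50 CPM. Claustrum-like neurons had 26.2, 22.6, 16.2, 17.9 and 12.6 CPM and other excitatory neurons had 38.2, 38.0, 36.2, 39.2 and 33.1 CPM. The groups did not overlap, and claustrum-like neurons were lower by 0.98 on the log2 scale (adjusted p = 2.74e-04, edgeR), just under the size limit, which was passed without unnamed cluster 5 (-1.10) and without either 17-month library. Without cluster 3 the difference was -0.80 (adjusted p = 1.77e-04). The range among claustrum-like clusters was 1.04 on the log2 scale (adjusted p = 1.66e-06, edgeR), and 0.92 without cluster 3 (adjusted p = 0.00245), under the size limit. Outside neurons, microglia had 16.8 ± 2.71 CPM of VIPR1 and oligodendrocytes 2.69 ± 1.18 CPM, and each library's microglial value was above its oligodendrocyte value.

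RXFP1, the receptor of relaxin, had 54834 counts over all kept nuclei. Corticothalamic-like cluster 6 (1031 ± 95.3 CPM) and layer 6b-like cluster 8 (1030 ± 158 CPM) shared the first place, and claustrum-like cluster 2 (leading genes GRIK1 and SNTB1, 761 ± 40.0 CPM) overlapped with cluster 8 at its lower end. The 18 nuclei of unnamed cluster 15 had 1120 CPM pooled. Intercalated-like neurons, with FOXP2 and TSHZ1 among their leading genes as in the intercalated cells of the amygdala, had 648, 356, 878, 777 and 649 CPM. These 4 groups did not overlap with the next, claustrum-like clusters 3 (209 ± 12.9 CPM) and 1 (207.0 ± 35.1 CPM). Unnamed cluster 4 had the lowest mean of the excitatory clusters, with 23.3 to 56.4 CPM.

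Claustrum-like cluster 7, which leads with CCDC192, GNA14 and the dopamine receptor DRD2, had 84.2 and 226 CPM of RXFP1 at 17 months and 63.8, 26.8 and 11.6 CPM at 18 months. In this cluster the library with the most RXFP1 had the least HCRTR2, and the 2 libraries with the least RXFP1 had the most HCRTR2. The range among claustrum-like clusters was 3.37 on the log2 scale (adjusted p = 7.404e-05, edgeR). Against all other excitatory neurons the claustrum-like group was higher by 0.43 (352 ± 19.7 against 266 ± 61.3 CPM, adjusted p = 0.0774, edgeR), and against the named cortical-like clusters alone it was lower by 1.21 (value -1.21, adjusted p = 9.34e-08). Without cluster 3 the range was 3.37 (adjusted p = 0.00169) and the difference from all other excitatory neurons was 0.62 (adjusted p = 0.0268), below the size limit.

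Among inhibitory neurons RXFP1 was higher in the MGE-like than in the CGE-like class. MGE-like neurons had 143, 161, 84.1, 87.5 and 69.1 CPM and CGE-like neurons had 40.2, 26.7, 15.7, 25 and 24.2 CPM, without overlap (log2 difference -2.01, standard error 0.110, adjusted p = 1.64e-14, edgeR). The PVALB-like cluster 1 was its highest large inhibitory cluster at 158 ± 53.0 CPM, followed by MGE-like cluster 3 at 137 ± 49.5 CPM. The MGE-like clusters 4 (47.6 ± 28.6 CPM) and 8 (35.6 ± 14.6 CPM) overlapped with the CGE-like clusters 5 (32.5 ± 7.65 CPM) and 6 (32.1 ± 14.3 CPM). CGE-like neurons lay below the oligodendrocytes of the same library in each of the 5 libraries (oligodendrocytes 69.5, 61.8, 39.8, 51.0 and 31.6 CPM), and so did striatal projection neurons at 13.5 ± 10.1 CPM. Oligodendrocytes were shallower, so the order in UMIs per nucleus can differ. Excitatory neurons as a whole exceeded inhibitory neurons by 2.26 on the log2 scale (adjusted p = 2.63e-04, edgeR).

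**Figure D4:**
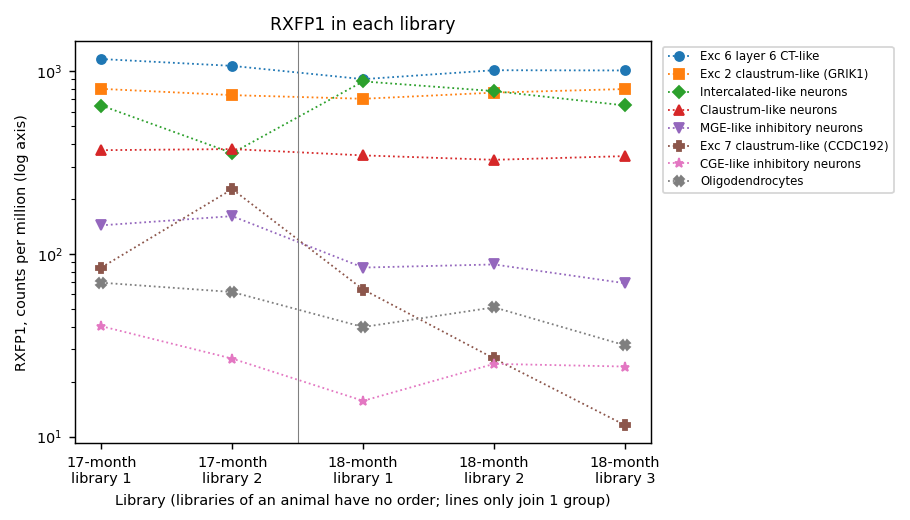
RXFP1 level (CPM, log axis) in each of the 5 libraries for 8 groups of nuclei; the vertical line separates the animals. Cluster 6 stays between 903 and 1164, MGE-like neurons lie at 143 and 161 for the 17-month animal and between 69.1 and 87.5 for the 18-month animal, and claustrum-like cluster 7 runs from 226 down to 11.6.

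NPSR1, the receptor of the arousal peptide neuropeptide S, separated claustrum-like from other excitatory neurons. Claustrum-like neurons had 0.932, 1.03, 1.84, 1.76 and 2.25 CPM, and other excitatory neurons had 13.2, 8.49, 23.4, 10.0 and 21.1 CPM. The groups did not overlap, and the log2 difference was -3.26 (standard error 0.164, adjusted p = 6.47e-08, edgeR). It was -3.39 without claustrum-like cluster 3 and -1.80 (adjusted p = 1.80e-04) against the named cortical-like clusters. The unnamed cluster 5, which leads with CDH13 and VIT, held 474 of the 834 counts, at 36.7 ± 10.4 CPM in 245 of 842 nuclei with a UMI. Without it the difference was -2.43 (adjusted p = 5.33e-06). All 4 claustrum-like clusters had pooled levels between 0.644 and 2.09 CPM, beside 0.920 CPM in oligodendrocytes. Low NPSR1 was not particular to them: corticothalamic-like cluster 6 (3.82 ± 4.04 CPM) and layer 6b-like cluster 8 (2.13 ± 2.48 CPM) overlapped with the claustrum-like clusters.

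In inhibitory neurons most NPSR1 counts came from few nuclei. Of 2704 inhibitory nuclei 79 had a UMI, and 28 nuclei with at least 5 UMIs held 299 of the 378 counts, the highest having 26. A nucleus with any NPSR1 had 4.79 UMIs on average, against 1.88 in other excitatory neurons (834 counts in 443 nuclei). CGE-like cluster 12, 54 nuclei with NPSR1, RORB and RELN as leading genes, held 114 counts in 16 nuclei, at 168, 799 and 93.01 CPM in the 3 libraries with at least 10 of its nuclei. In cluster 11, 2 of 69 nuclei held all 32 counts. The inhibitory level spread widely between libraries (CGE-like neurons 27.2 ± 18.5, MGE-like neurons 8.36 ± 7.07 CPM), and neither that difference (log2 1.68, adjusted p = 0.208, edgeR) nor the one between excitatory and inhibitory neurons (log2 -1.12, adjusted p = 0.0845) passed. The second passed with DESeq2 (adjusted p = 6.95e-04) and without the library as a block (adjusted p = 0.00567, edgeR). Striatal projection neurons were lower than inhibitory neurons by 4.21 (value -4.21, adjusted p = 2.33e-08, edgeR), at 0.649 ± 0.476 CPM.

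NPFFR1, a receptor for RFamide peptides, was an inhibitory gene. It had 31.8, 33.7, 24.3, 22.1 and 23.0 CPM in inhibitory neurons and 0.185 to 0.571 CPM in excitatory neurons, a log2 difference of -6.14 (standard error 0.200, adjusted p = 4.48e-11, edgeR). Oligodendrocytes had 2.41 ± 0.586 CPM, above the excitatory level. Both the MGE-like and the CGE-like branch had clusters with and without it. PVALB-like cluster 8 (63.5 ± 36.8 CPM), the LAMP5- or SNCG-like clusters 5 (CGE-like, 61.1 ± 20.9 CPM) and 3 (MGE-like, 50.1 ± 6.62 CPM) and the VIP-like clusters 2 and 6 (48.9 ± 6.60 and 48.4 ± 20.1 CPM) overlapped one another. PVALB-like cluster 1 had 0.785 CPM pooled, SST-like cluster 4 had 1.98 CPM, and the HCRTR2-rich cluster 13 had no count in 53 nuclei, which allows a level of up to 5.20 CPM (3 counts). CGE-like neurons exceeded MGE-like neurons by 1.17 (40.3 ± 7.403 against 18.3 ± 4.32 CPM, adjusted p = 1.28e-09, edgeR), and striatal projection neurons were lower than inhibitory neurons by 5.14 (value -5.14, adjusted p = 5.56e-10). Intercalated-like neurons had 11 counts in 7 of 35 nuclei of the second 17-month library and none in the 18-month libraries.

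CCKBR, the main brain receptor of cholecystokinin, was found in each excitatory cluster of at least 50 nuclei, with means from 6.90 to 29.3 CPM. Excitatory neurons had 16.4 ± 1.55 CPM and inhibitory neurons 6.01 ± 0.909 CPM, higher in each library (log2 difference 1.51, standard error 0.120, adjusted p = 1.43e-07, edgeR). Clusters 11, 9, 13, 4, 2, 5 and 1 had means between 16.9 and 29.3 CPM and overlapped with their neighbours in rank. Claustrum-like clusters 3 (10.3 ± 2.81 CPM) and 7 (6.90 ± 3.00 CPM) were lower than clusters 2 (18.9 ± 1.04 CPM) and 1, and the range among claustrum-like clusters was 1.42 on the log2 scale (adjusted p = 1.48e-07). Claustrum-like neurons were lower than other excitatory neurons by 0.30 (value -0.30, adjusted p = 0.00911, edgeR), below the size limit. Without cluster 3 that difference was -0.16 (adjusted p = 0.157) and the range among claustrum-like clusters was 1.41 (adjusted p = 9.73e-06). MGE-like neurons had 4.26 to 9.81 CPM and CGE-like neurons 0.532 to 4.45 CPM, an overlap of the lowest and highest library (log2 difference -2.12, 18 against 116 counts, adjusted p = 7.97e-05, edgeR). The SST-like cluster 4 (14.98 ± 5.22 CPM) was within the excitatory range. Striatal projection neurons (5.09 ± 1.57 CPM) overlapped with oligodendrocytes (4.99 ± 1.62 CPM).

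GALR1, a galanin receptor coupled to Gi, had more counts in microglia than in any neuron class. Microglia held 72 of 159 counts, in 71 of 2827 nuclei, with 6.10, 12.99, 11.5, 16.9 and 13.8 CPM over the libraries against 0.146 to 0.733 CPM in oligodendrocytes of similar depth. Claustrum-like neurons had 2 counts in 5074 nuclei and striatal projection neurons none in 1855, which allows up to 0.112 CPM. Among other excitatory neurons, layer 4/5-like cluster 9 held 15 of 20 counts. Among inhibitory neurons, cluster 15, 36 nuclei that lead with NPY, NOS1 and CHODL, held 18 of 29 counts at 41.5 CPM pooled. Excitatory neurons were lower than inhibitory neurons by 2.80 (value -2.80, standard error 0.456, adjusted p = 1.42e-04, edgeR), which rests on 22 and 29 counts. In intercalated-like neurons 11 of 17 counts came from 5 nuclei of the second 17-month library.

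The shares of nuclei with a UMI were set beside those of glia at equal depth, since free RNA can place a UMI in a nucleus that does not express the gene. Median depths were 16517 UMIs in claustrum-like, 7162 in CGE-like, 2417 in oligodendrocyte and 2036 in microglial nuclei, so nuclei were thinned to 2000 UMIs. This left out 1 claustrum-like, 8 CGE-like, 4193 oligodendrocyte and 1343 microglial nuclei. Of the 9 receptors, 7 had a class whose share lay above that of oligodendrocytes and microglia in each library, and HCRTR1 and GALR1 had none. At full depth, where neurons were deeper than glia, HCRTR1 had 4 such classes, claustrum-like neurons among them, and GALR1 had 0. Thinning takes more UMIs from deep nuclei, stray ones among them. Falling short of glia after thinning thus does not place a neuron class at the level of free RNA. At 1000 UMIs 6 receptors had such a class, VIPR1 had none, and CCKBR kept other excitatory neurons alone. In claustrum-like neurons RXFP1 was found in 39.9% ± 3.08 of thinned nuclei (71.3% unthinned), beside 8.97% ± 2.77 in oligodendrocytes and 10.5% ± 3.45 in microglia. MCHR2 was found in 6.52% ± 1.84 (30.8% unthinned) beside 1.34% ± 0.226 in oligodendrocytes, and CCKBR in 3.21% ± 0.571 (20.95% unthinned) beside 0.918% ± 0.214. HCRTR2 was found in 8.43% ± 7.16 (26.5% unthinned) beside 1.82% ± 0.906 in oligodendrocytes and 2.27% ± 1.16 in microglia, and its lowest library (2.78%) overlapped with theirs. NPSR1 in claustrum-like neurons (0.213% ± 0.142) was at the oligodendrocyte share (0.181% ± 0.0480) after thinning. Unthinned, the shares were 2.48% ± 1.27 and 0.208% ± 0.106, and the claustrum-like share lay above both glial classes in each library. In CGE-like neurons HCRTR2 was found in 10.8% ± 2.05 and NPFFR1 in 7.63% ± 2.20. VIPR1 in claustrum-like neurons (3.59% ± 1.08) did not separate from microglia (3.08% ± 0.870), whereas other excitatory neurons did (7.35% ± 0.846). Each claustrum-like library (at least 2.15%) lay above each oligodendrocyte library (at most 0.924%) for VIPR1. GALR1 was found in 2.30% ± 0.454 of thinned microglia, beside 0.0714% ± 0.0823 of oligodendrocytes. For VIPR1 and GALR1 microglia exceeded oligodendrocytes, so falling short of microglia does not place a neuron class at the level of free RNA.

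Over the 32 neuronal clusters with at least 50 nuclei, MCHR2, VIPR1 and CCKBR varied together. As a description, with clusters that share libraries and differ in depth, Pearson's r of log2(CPM + 1) was 0.72 for MCHR2 with VIPR1, 0.69 for VIPR1 with CCKBR and 0.61 for MCHR2 with CCKBR. RXFP1 was less tied to them, with 0.58 for VIPR1, 0.44 for CCKBR and 0.36 for MCHR2. The value was -0.73 for NPFFR1 with CCKBR, and 0.07 for HCRTR2 with MCHR2. Of 11693 genes the ones most like MCHR2 were the neurotrophin BDNF (0.88), SLC43A1 (0.88) and CPNE4 (0.87), and the ones most like VIPR1 included NUAK1 (0.92) and the vesicular glutamate transporter SLC17A7 (0.92). The closest gene was URI1 (0.88) for NPFFR1, KATNAL1 (0.85) for CCKBR, SDHAF4 (0.78) for RXFP1, PTPN23 (0.78) for NPSR1 and C7H15orf39 (0.74) for HCRTR2.

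Several ligand genes were sparse in this tissue. Of 4 ligand genes tested between excitatory and inhibitory neurons, 2 were higher in excitatory neurons and 1 was lower, against 9.42% of all genes in each direction. PMCH and NPVF had no count, RLN2 had 1 count among the classes described here, and HCRT was sparse, with 1.44 ± 0.418 CPM in claustrum-like neurons and 1.36 ± 0.368 CPM in oligodendrocytes. VIP had 85.0 ± 19.99 CPM in CGE-like and 1.06 ± 0.469 CPM in claustrum-like neurons, beside 5.77 ± 1.87 CPM in oligodendrocytes, and CCK had 17.0 ± 5.27 CPM in CGE-like and 1.94 ± 0.730 CPM in MGE-like neurons (log2 difference 3.00, adjusted p = 1.24e-11, edgeR). GAL was higher in claustrum-like than in other excitatory neurons (5.26 ± 3.396 against 1.69 ± 1.12 CPM, log2 difference 1.64, adjusted p = 4.56e-06), and the PACAP gene ADCYAP1 was lower (log2 -3.09, adjusted p = 7.04e-04).

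Among other receptors of the same families, those that passed were lower in claustrum-like neurons. Of 7 tested, 2 were lower and 0 were higher: the second RFamide receptor NPFFR2 (log2 -4.72, adjusted p = 8.05e-07, edgeR) and the PACAP receptor ADCYAP1R1 (log2 -3.44, adjusted p = 1.44e-09; 2.64 ± 0.573 against 28.5 ± 0.740 CPM). Of all genes tested, 4.54% were higher and 5.86% lower. Of 24 other peptide receptors tested, 3 were higher and 10 lower, with a median of -0.54 beside -0.0032 over all genes. The corticotropin-releasing hormone receptor CRHR2 (log2 -6.21), the prokineticin receptor PROKR2 (-3.83), the mu opioid receptor OPRM1 (-3.79) and GLP2R (-3.64), a glucagon-like peptide receptor, were the largest. The 3 that were higher were the bradykinin receptor BDKRB2 (2.56), the kappa opioid receptor OPRK1 (2.402) and the endothelin receptor EDNRA (1.08). Of 33 G protein and effector genes tested, 6 were higher, among them the regulator RGS12 (2.21), and 3 were lower, among them the adenylyl cyclase ADCY8 (-3.56).

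The same lists were counted in the other comparisons. Between excitatory and inhibitory neurons 10 of 30 other peptide receptors were higher and 12 lower, against 9.42% of all genes in each direction, with BDKRB2 (log2 4.03) higher and the substance P receptor TACR1 (-5.80) and the bombesin-family receptors NMBR (-5.44) and GRPR (-4.03) lower. Of the same families 1 of 7 was higher and 3 were lower, and of 34 effector genes 9 were higher and 8 lower. Between CGE-like and MGE-like neurons 8 of 15 other peptide receptors were higher and 1 was lower, against 4.54% and 3.66% of all genes, with NMBR (3.69), the neurotensin receptor NTSR1 (3.32) and the calcitonin receptor CALCR (3.14) the highest. In striatal projection neurons 12 of 18 were lower than in inhibitory neurons and 1, OPRK1 (1.90), was higher, against 15.3% lower and 11.3% higher over all genes, with a median of -2.46 beside -0.0029 over all genes. The effector genes split evenly there, 10 of 31 higher and 10 lower, with the adenylyl cyclase ADCY8 (-6.96) and the potassium channel KCNJ6 (-5.15) among the lower ones.

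Between the animals, few of the receptors passed, and each comparison is 3 libraries of 1 animal against 2 of another (adjusted p under 0.05 in edgeR, no size limit). In claustrum-like neurons 1 of 7 tested passed, against 11.9% of all genes (5.78% higher and 6.12% lower): VIPR1 was lower in the 18-month animal by 0.59 on the log2 scale (value -0.59, standard error 0.151, adjusted p = 0.0423). Its 17-month values, 26.2 and 22.6 CPM, lay above the 18-month values, 12.6 to 17.9 CPM, but the call was lost without either 17-month library, without libraries 1 or 3 of the 18-month animal (adjusted p from 0.0520 to 0.281) and with the replicate numbers as a block (adjusted p = 0.0995). Without cluster 3 the difference was -0.54 (adjusted p = 0.0470). Microglia of the same libraries did not share the order (18.3 and 13.9 against 13.8 to 19.3 CPM). NPSR1 was higher by 1.05 (adjusted p = 0.05 after rounding, not passed). In other excitatory neurons none of 7 passed, against 8.34% of all genes (3.99% higher and 4.35% lower). There 1 receptor, MCHR2, had an unadjusted p under 0.05 (log2 -0.55, adjusted p = 0.0696, edgeR), and DESeq2 called it (adjusted p = 0.0461).

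In inhibitory neurons 2 of 6 tested receptors passed, against 6.67% of all genes (3.46% lower), and both were lower in the 18-month animal. RXFP1 had 94.6 and 101 CPM at 17 months and 54.4, 61.05 and 53.4 CPM at 18 months, without overlap (log2 difference -0.78, standard error 0.0868, adjusted p = 5.86e-06, edgeR), and the call held without each library in turn. Excitatory neurons had 306 and 349 CPM against 294, 324 and 327 CPM. The difference between excitatory and inhibitory neurons was larger in the 18-month animal by 0.79 on the log2 scale (standard error 0.0956, adjusted p = 4.16e-04, edgeR's interaction term), a test that 111 of 7720 genes passed. In oligodendrocytes RXFP1 was 69.5 and 61.8 CPM against 39.8, 51.0 and 31.6 CPM, and in microglia 76.2 and 73.3 against 46.1, 66.0 and 41.4 CPM. The level outside neurons thus moved the same way as the inhibitory level, and its part in the result was not tested. NPFFR1 was lower by 0.49 (value -0.49, adjusted p = 0.0192), which DESeq2 did not call (adjusted p = 0.223) and which was lost without either 17-month library or library 2 of the 18-month animal.

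Among the related genes, the second receptor of vasoactive intestinal peptide, VIPR2, was lower in the 18-month animal in claustrum-like neurons (4.26 against 0.320 CPM, log2 -3.67, adjusted p = 4.59e-04, edgeR) and in other excitatory neurons (6.24 against 0.982 CPM, log2 -2.59, adjusted p = 0.00192). Oligodendrocytes had 1.39 against 0.158 CPM of VIPR2. GAL was higher in the 18-month animal in claustrum-like neurons (1.58 against 7.71 CPM, log2 2.34, adjusted p = 5.83e-04). In inhibitory neurons the relaxin-family receptor RXFP2 was higher (2.66 against 10.7 CPM, log2 2.11, adjusted p = 1.72e-04), and in oligodendrocytes it was 8.18 against 23.9 CPM. For VIPR2 and RXFP2 the means outside neurons moved in the same direction, and their part was not tested.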

How the data were processed

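Each deposited matrix is a table of raw UMI counts, genes by nucleus barcodes. The file headers name Cell Ranger 5.0.1, and the submitters' processing notes name CASAVA 1.8, Seurat and the builds Mmul_10 and mm10; the gene identifiers are macaque. Nuclei with under 500 genes (359) were removed; none exceeded 5% mitochondrial UMIs. Scrublet (scanpy 1.11.5) scored doublets, but its automatic threshold called as few as 0.0314% of a library, so the highest-scoring 0.8% per 1000 nuclei were removed (2555).

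Genes were split at random into 2 sets. From 1 set, without the 9 receptors and the listed pathway genes, the 2000 most variable genes gave 30 principal components, 15 neighbours and Leiden clusters (igraph 0.11.9) at resolution 1.0, and at 0.6 within neurons. Clusters were named from marker lists. Clusters with 2 or more glial markers among their 10 leading genes (337 nuclei) were set aside as mixed, and 1983 nuclei stayed unnamed. Counts were summed per library and group (at least 20 nuclei). R 4.3.3 with edgeR 4.0.16 was used for the tests, with TMM scaling, filterByExpr and a robust quasi-likelihood model in which the library was a block between cell types. Genes used for clustering or naming were left out of these tests, but animals were compared on all genes. Benjamini-Hochberg adjustment ran over all genes tested, and the procedure was tested on simulated data. DESeq2 1.42.0 was an alternative. Intervals and upper limits cover counting error only.

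The receptors, lists and tests were chosen with earlier results of these data known. For each comparison the number of receptors tested is given with those that passed. Receptors that were untested or did not pass are not all named. Of each list up to 4 called genes with the largest difference and 1 direction in every library could be named. The 3 genes most like a receptor could be named too. The 3 higher receptors of the claustrum comparison, OPRK1 in striatal neurons and the clusters described nucleus by nucleus were picked with their values in view. Python 3.11.15 was used with matplotlib 3.10.9, numpy 2.4.6, pandas 2.3.3, scipy 1.17.1 and scikit-learn 1.9.0. Other settings were a limit of 1000 genes, more doublets removed, no filter on low counts, subclusters at resolution 1.0, other reference clusters and each library left out. Listed ligand, receptor and effector genes not named in the text were measured too, and those tested are part of the counts given. Ligand and receptor genes outside the lists were not described.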

Additional observations from a re-analysis of the deposited data

Results flagged for a closer look

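The difference of RXFP1 between excitatory and inhibitory neurons was not the same in the 2 animals. It was larger in the 18-month animal by 0.79 on the log2 scale in a test of the cell type by animal interaction (adjusted p = 4.16e-04, edgeR). Inhibitory neurons had 94.6 and 101 CPM at 17 months and 53.4 to 61.05 CPM at 18 months, while excitatory neurons had 294 to 349 CPM with the animals overlapping. Each age is 1 animal, so age and individual cannot be told apart.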

How the results depend on the processing

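The 5 cell type comparisons kept their count of called genes within 1.5 times of the main count under the alternatives run, except that subclusters at resolution 1.0 raised the count among claustrum-like clusters from 662 to 1277. The counts between animals depended on single libraries. Leaving out 1 library gave 235 to 1863 genes in claustrum-like neurons (1773 with all), 161 to 1610 in other excitatory neurons (1185) and 292 to 904 in inhibitory neurons (876). In inhibitory neurons DESeq2 called 315 genes and no filter on low counts gave 1334.

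With the replicate numbers of the labels as a block between animals, the counts were 904, 933 and 867; library 3 of the 18-month animal has no partner. For each gene the mean of an animal was subtracted from its libraries, and the deviations that remained were correlated. Those of same-numbered libraries correlated at -0.22 and -0.06 in claustrum-like, 0.16 and 0.22 in other excitatory and 0.07 and 0.04 in inhibitory neurons. With 2 libraries at 17 months, the deviations of 1 mirror those of the other, so these values say nothing of how alike whole libraries are. The labels name no shared source for equal numbers, and 2 pairs do not show whether the numbers pair the libraries. Under that block the sign turned for MCHR2 in claustrum-like neurons (-0.24) and for HCRTR1 (-0.16), VIPR1 (0.013) and RXFP1 (-0.037) in other excitatory neurons. Between cell types the library is the block in the main model. Leaving that library block out gave 1279, 650, 411, 1569 and 523 genes, and NPSR1 then passed between excitatory and inhibitory neurons (adjusted p = 0.00567, edgeR).

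Receptor differences whose sign turned were all ones not called in the main model. The ranges over leaving out each library were -0.17 to 0.40 for HCRTR2 between excitatory and inhibitory neurons, -0.60 to 0.075 for HCRTR1 and -0.090 to 0.20 for MCHR2 between claustrum-like and other excitatory neurons, and -0.18 to 0.14 for CCKBR between striatal and inhibitory neurons. Between the animals they were -0.36 to 0.35 for HCRTR1, -0.068 to 0.22 for CCKBR and -0.23 to 0.28 for MCHR2 in claustrum-like neurons, and -0.081 to 1.06 for HCRTR1, -0.099 to 0.91 for HCRTR2, -0.21 to 0.38 for RXFP1 and -0.12 to 0.017 for VIPR1 in other excitatory neurons. HCRTR2 between excitatory and inhibitory neurons was -0.23 without broad clusters 12 and 19. Between claustrum-like and other excitatory neurons, the named cortical-like reference gave HCRTR2 -0.96 and RXFP1 -1.21, resolution 1.0 gave HCRTR2 -0.14 and MCHR2 -0.067, and leaving out cluster 5 gave MCHR2 -0.18. With clusters weighted equally, the animals differed by 0.13 for HCRTR1 and -0.12 for MCHR2 in claustrum-like neurons. The cause of these turns was not tested. The alternatives without clusters 3, 5 or striatal 8, without broad clusters 12 and 19, and with mixed clusters kept were chosen after seeing the data. HCRTR1 and GALR1, with 260 and 159 counts, are limited by depth in most clusters.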
